A study of Mus musculus with 4 samples.

Results

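The genes described here encode the thin filament of striated muscle and its capping proteins. They are the actins Actc1 and Acta1, the troponins Tnni3, Tnni1, Tnnt2, Tnnt1 and Tnnc1, the tropomyosin Tpm1, the leiomodin Lmod2 and the tropomodulin Tmod1. These 10 genes of 21728 protein-coding genes were taken by name from the GENCODE annotation of mm10, and all 10 were found. Actc1, Tnni3, Tnnt2, Tnnc1, Tpm1, Lmod2 and Tmod1 are called the 7 cardiac genes, although Tnnc1, Tpm1 and Tmod1 are also used outside the heart. Acta1, Tnni1 and Tnnt1 are called the 3 skeletal paralogs, and Acta1 and Tnni1 are known to be used by the fetal heart as well.

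ATAC-Seq, in which the Tn5 transposase cuts and tags accessible DNA, was performed on nuclei of whole hearts from male C57BL/6 mice aged 8 to 12 weeks. Every animal was NuTRAP/Cdh5-Cre, so both groups carried the Cre transgene and the GFP reporter, and GFP marks nuclei of cells in which the Cdh5 promoter has been active at some time. The paper's list of strains gives mixed backgrounds, not pure C57BL/6, for the NuTRAP and Cdh5-Cre parent lines. GFP+ (endothelial) nuclei and GFP- (non-endothelial) nuclei were sorted by flow cytometry, with 2 replicates of each and 100 to 50000 nuclei per reaction. The GFP- nuclei are a mixture of all other heart cells, and the sort kept nuclei with the DNA content of a single diploid nucleus, so polyploid nuclei were left out.

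The authors called 1 list of peaks per population from both replicates together, with 78912 GFP- peaks and 65008 GFP+ peaks. Neither list gives values per replicate or read depth, and the authors' own test on reads (DiffBind) is not used here. No difference between the lists therefore has a replicate error or a test here, and every comparison is a description of these 2 lists. The fraction of nuclei that are open at a site and the openness of each nucleus cannot be told apart in either list.

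In the sarcomere, actin polymerises into the thin filament and tropomyosin lies along it. The troponin complex moves tropomyosin when calcium binds to troponin C, which lets myosin bind actin, while troponin I holds the filament off and troponin T ties the complex to tropomyosin. Tropomodulin caps the pointed end of the filament and leiomodin lengthens it there. Adult heart and skeletal muscle use different paralogs of actin, troponin I and troponin T, and troponin I and T also differ between slow and fast skeletal muscle. Promoters of these genes are known targets of SRF, which binds the CArG box, and of MEF2, GATA, TEAD and NKX2-5 factors.

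The promoters of the paralogs are shown first because cardiac and skeletal paralogs are the contrast of interest. The stretches run from 180 to 31 bp before the RefSeq transcript start on GRCm38.p6, the build of the peak files, and are written 5′ to 3′ on the strand of the gene. Capitals mark words searched on both strands. These were the CArG box and MEF2 by their usual consensus, the GATA word AGATAA with its alternative form TGATAA, and the MCAT word of the TEAD factors, CATTCC. The others were the NKX2-5 word TNAAGTG, the TATA box, TATAAA, and the AP-1 word TGACTCA with its alternative form TGAGTCA. The stretch before Tnni3 is not shown because it overlaps an annotated exon.
Actc1 promoter, chr2:114052906-114053055, minus strand: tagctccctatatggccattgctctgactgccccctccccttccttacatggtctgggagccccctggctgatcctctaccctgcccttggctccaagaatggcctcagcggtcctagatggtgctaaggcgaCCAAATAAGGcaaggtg
Acta1 promoter, chr8:123894806-123894955, minus strand: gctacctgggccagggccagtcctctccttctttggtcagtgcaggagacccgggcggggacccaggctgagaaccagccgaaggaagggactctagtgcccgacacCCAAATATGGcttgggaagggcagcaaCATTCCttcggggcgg
Tnni1 promoter, chr1:135799241-135799390, plus strand: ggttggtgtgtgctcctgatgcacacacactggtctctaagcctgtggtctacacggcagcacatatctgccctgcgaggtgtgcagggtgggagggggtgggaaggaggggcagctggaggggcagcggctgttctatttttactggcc
Tnnt2 promoter, chr1:135836154-135836303, plus strand: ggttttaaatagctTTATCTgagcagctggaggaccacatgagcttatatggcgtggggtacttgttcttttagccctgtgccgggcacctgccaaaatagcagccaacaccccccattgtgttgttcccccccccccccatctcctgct
Tnnt1 promoter, chr7:4516006-4516155, minus strand: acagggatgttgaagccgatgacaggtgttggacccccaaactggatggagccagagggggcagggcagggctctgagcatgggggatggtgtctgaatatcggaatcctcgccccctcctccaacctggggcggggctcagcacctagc

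Both actin promoters held a CArG box, at -47 to -38 from the RefSeq start of cardiac Actc1 and at -73 to -64 from that of skeletal Acta1, and Acta1 also held an MCAT word at -46 to -41. Tnnt2 held a GATA word at -166 to -161, and the stretches of Tnni1 and Tnnt1 held none of the words. Over the 12 RefSeq promoters of the 10 genes, each 300 bp long, CArG was present in 2, against 1.63% of all 32851 promoters. MCAT was present in 5 of the 12, against 14.7% of all. TATA was present in 3 against 13.6%, GATA in 1 against 18.6%, and MEF2, NKX2-5 and AP-1 in 0, against 3.19%, 11.5% and 5.202%. A word is a run of letters, and no factor was measured here.

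All 5 GFP- peaks of Actc1 follow, as 200 bp around each summit, because this locus has the longest peak of the family. They are followed by the highest ranked pair of peaks that only the GFP- list held, at Lmod2 and Tnni1, and by the Tnnc1 peak with the largest loss of rank in the GFP+ list. Windows were chosen by gene, list and rank and not by the words in them.
Actc1 peak, chr2:114071948-114072147, minus strand: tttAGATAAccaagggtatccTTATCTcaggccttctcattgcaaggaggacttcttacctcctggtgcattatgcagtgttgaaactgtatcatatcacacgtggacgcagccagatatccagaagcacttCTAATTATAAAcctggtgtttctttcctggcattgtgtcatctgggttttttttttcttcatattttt
Actc1 peak, chr2:114058311-114058510, minus strand: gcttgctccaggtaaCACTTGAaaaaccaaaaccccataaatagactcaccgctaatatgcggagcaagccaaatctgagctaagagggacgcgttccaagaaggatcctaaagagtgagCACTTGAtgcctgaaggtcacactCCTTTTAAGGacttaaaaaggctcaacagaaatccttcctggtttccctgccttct
Actc1 peak, chr2:114057343-114057542, minus strand: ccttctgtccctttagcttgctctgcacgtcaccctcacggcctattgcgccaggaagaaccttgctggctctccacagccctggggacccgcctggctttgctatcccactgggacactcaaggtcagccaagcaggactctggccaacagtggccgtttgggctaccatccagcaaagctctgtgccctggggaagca
Actc1 peak, chr2:114055078-114055277, minus strand: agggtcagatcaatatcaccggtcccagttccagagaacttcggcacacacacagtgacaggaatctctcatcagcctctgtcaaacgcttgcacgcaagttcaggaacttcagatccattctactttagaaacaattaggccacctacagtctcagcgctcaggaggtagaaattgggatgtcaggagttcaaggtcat
Actc1 peak, chr2:114054185-114054384, minus strand: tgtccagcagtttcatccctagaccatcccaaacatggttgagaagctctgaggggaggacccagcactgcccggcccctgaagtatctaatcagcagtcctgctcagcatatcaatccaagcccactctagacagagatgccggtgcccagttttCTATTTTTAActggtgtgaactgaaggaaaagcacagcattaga
Lmod2 peak, chr6:24583539-24583738, plus strand: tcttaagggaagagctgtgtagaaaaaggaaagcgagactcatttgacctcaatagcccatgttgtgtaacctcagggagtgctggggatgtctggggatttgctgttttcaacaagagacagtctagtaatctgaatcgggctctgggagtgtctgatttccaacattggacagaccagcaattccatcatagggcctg
Tnni1 peak, chr1:135771054-135771253, plus strand: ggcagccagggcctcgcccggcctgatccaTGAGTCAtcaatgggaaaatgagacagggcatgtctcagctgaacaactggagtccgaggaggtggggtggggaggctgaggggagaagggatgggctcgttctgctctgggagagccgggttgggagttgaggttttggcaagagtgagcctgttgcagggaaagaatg
Tnnc1 peak, chr14:31197879-31198078, plus strand: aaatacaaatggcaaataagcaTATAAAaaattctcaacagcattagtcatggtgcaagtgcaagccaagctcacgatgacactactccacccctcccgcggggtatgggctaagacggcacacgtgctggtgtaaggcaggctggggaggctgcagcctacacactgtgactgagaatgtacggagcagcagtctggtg

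In the order shown, the Actc1 windows lie 18500, 4863, 3895, 1630 and 737 bp upstream of the start of the gene record. The first held a MEF2 word, a pair of GATA words and a TATA word that overlaps the MEF2 word by its letters, the next held a CArG box and a pair of NKX2-5 words, and the last held a MEF2 word. The windows at 3895 and 1630 bp held none, and those at 1630 and 737 bp overlap exons of the antisense transcript C130080G10Rik. The Lmod2 window held none of the words, the Tnni1 window held AP-1, and the Tnnc1 window held TATA.

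Over all peaks of the family, the words were found in shares that can be set beside those of the whole lists. GATA lay in 17 of 80 GFP- windows (21.3%, all GFP- peaks 14.6%) and in 16 of 77 GFP+ windows (20.8%, all GFP+ peaks 14.6%). MCAT lay in 12 GFP- windows (15.0% against 13.6%) and in 19 GFP+ windows (24.7% against 12.7%). CArG lay in 3 windows of each list, 3.75% and 3.90%, against 1.12% and 1.08% of all peaks. MEF2 lay in 6.25% of GFP- and 7.79% of GFP+ windows, against 4.98% and 5.44% of all, and NKX2-5 in 6.25% and 6.49%, against 9.35% and 9.32%. AP-1 lay in 8.75% and 9.09%, against 7.79% and 5.89% of all, and TATA in 6.25% and 10.4%, against 6.64% and 6.83%. Counts of 3 to 6 windows lie behind the rarer words, and none of these shares was tested.

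All 10 genes had a peak at the start of the gene record in both populations, although Tnni1 had none at its RefSeq starts. A peak overlapped the transcription start site (TSS, the 5′ end of the gene record, +/- 250 bp) in 10 of 10 genes in the GFP- list and in 10 of 10 in the GFP+ list, against 56.9% and 54.8% of all protein-coding genes. Each peak was ranked by its area, a value that the peak caller summed over the length of the peak. Ranks are percentiles of the own list from 0 to 100. The area is not a count of reads, and it was not shown to measure the amount of open chromatin. In 8 of 10 genes the TSS peak ranked lower in GFP+ nuclei by area, but in 4 of 10 by area per bp, against 71.3% by area of all genes for which both lists held such a peak. The median difference was -1.94 percentile points for the 10 genes (3.05 by area per bp) and -0.74 for all genes.

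**Figure D1:**
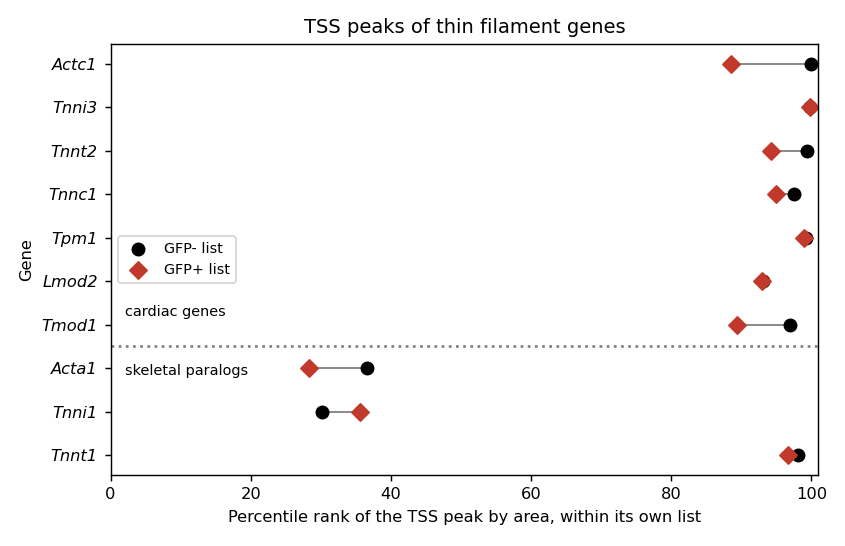
Percentile rank of the TSS peak of each gene by area (x axis, 0 to 100 within the own list), with black circles for the GFP- list and red diamonds for the GFP+ list. The cardiac genes and Tnnt1 sit at 88.5 or above in both lists, while Acta1 and Tnni1 sit between 28.3 and 36.6.

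Cardiac actin ranked high in both lists, and at its TSS it was the highest of the 10 genes in GFP- nuclei. Actc1 (chr2:114047282-114053548, minus strand) was covered by a single GFP- peak of 8741 bp, chr2:114046131-114054871, whose area of 18266 was position 89 of the list and percentile 99.9. In the GFP+ list the same stretch was divided into 4 peaks of 1675, 4521, 1058 and 1074 bp, at percentiles 76.0, 97.8, 88.5 and 89.4. The TSS peak, the third of these, was 11.3 points below its GFP- counterpart by area, but 25.9 points above it by area per bp. Summed over the region, the areas were 18266 and 16601, and the summed-area rank was 99.88 in both lists. Whether the division into shorter peaks has a part in the lower GFP+ rank of the TSS peak was not tested. The gene body was covered to 100.0% in GFP- and 96.5% in GFP+ nuclei.

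Upstream of Actc1, peaks at 3895 bp ranked 91.0 and 90.1, those at 4863 bp 64.1 and 57.01, and those at 18500 bp 62.0 and 52.9 in the GFP- and GFP+ lists. A weak peak 1630 bp upstream ranked higher in GFP+ nuclei, at 34.3 against 2.16. The GFP+ list also held a peak 2776 bp upstream at percentile 17.7 and a peak 16963 bp upstream at percentile 8.06, and neither overlapped a GFP- peak.

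Skeletal actin had few and low peaks by comparison. Acta1 (chr8:123891769-123894751, minus strand) had 1 peak in each list, of 422 bp at percentile 36.6 in GFP- and of 569 bp at percentile 28.3 in GFP+ nuclei. This peak holds the CArG box printed above and lies within the annotated gene Gm20388. The peaks covered 2.95% and 3.72% of the gene body. Cardiac actin exceeded skeletal actin by 63.3 points in the GFP- list and by 60.2 points in the GFP+ list, in the same direction in both.

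Troponin I gave the same contrast. Cardiac Tnni3 (chr7:4518305-4524229, minus strand) had a TSS peak of 4907 bp and area 15907 in GFP- nuclei, at position 172 and percentile 99.8. In GFP+ nuclei the peak was 5063 bp long with an area of 14737, at position 99 and percentile 99.8. It overlapped the GFP- peak over 4898 bp, and among the 10 genes it was the only GFP+ peak within the top 1% of its list, where the GFP- list had 4. By summed area the GFP+ regions of Actc1 (99.88) and Tnnc1 (99.1) also ranked within the top 1%. In the GFP- list the summed region of Tnnc1 (99.3) was added. The body of Tnni3 was covered to 66.4% and 77.03%, so it was 1 of 3 genes with the higher value in GFP+ nuclei. Peaks 2248 and 8326 bp upstream, in and at the start of Dnaaf3, ranked 87.2 and 67.6 in the GFP- list and 83.2 and 65.2 in the GFP+ list.

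Slow skeletal Tnni1 (chr1:135779434-135810989, plus strand) had a TSS peak at percentile 30.2 in GFP- and 35.6 in GFP+ nuclei. That peak lies at the 5′ end of a non-coding transcript of the gene, and neither list had a peak at the RefSeq starts, which lie 19987 and 20077 bp further downstream. The peaks covered 2.61% and 2.48% of the body. Tnni3 exceeded Tnni1 by 69.6 points in the GFP- and by 64.2 points in the GFP+ list.

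The window of Tnni1 still held 8 GFP- and 5 GFP+ peaks. The highest, 13316 bp upstream, lies at the start of Phlda3 and ranked 88.8 and 79.6. Peaks 15680, 8280 and 2596 bp upstream, at percentiles 28.8, 71.1 and 45.2, were in the GFP- list only, and the window printed above with its AP-1 word is that at 8280 bp. Tnni1 was the only one of the 10 genes with at least 1.5-fold more bp under peaks in GFP- nuclei, 4109 against 2383 bp (1.72-fold). Within the gene body alone the ratio was 1.05, and the upstream bp include the peak at the start of Phlda3. Over all genes 17.9% passed this fold, and 3.52% passed it in the other direction, where 0 of the 10 genes did.

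Troponin T did not separate in this way. Cardiac Tnnt2 (chr1:135836354-135852260, plus strand) had a TSS peak of 5866 bp at percentile 99.4 in GFP- nuclei, which met 4 GFP+ peaks, and the one at the TSS was 1897 bp long and ranked 94.3. The summed areas of these were 12536 and 9318, and the summed-area ranks were 99.4 and 98.7. By area per bp the TSS peak ranked 16.4 points higher in the GFP+ list. The gene body was covered to 82.8% and 67.9%, with intronic peaks 11792 bp downstream at percentile 95.6 in GFP- and 11824 bp downstream at 91.8 in GFP+ nuclei. A peak 12705 bp downstream, percentile 32.5, was in the GFP- list only.

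Slow skeletal Tnnt1 (chr7:4504570-4516382, minus strand) ranked within the range of the cardiac genes at its TSS in both lists. Its TSS peak was 4227 bp long at percentile 98.0 in GFP- and 3049 bp long at percentile 96.7 in GFP+ nuclei, and the body was covered to 54.9% and 44.5%. Tnnt2 exceeded Tnnt1 by 1.38 points in the GFP- list and lay 2.39 points below it in the GFP+ list, where it lay 13.7 points above it when ranked by area per bp. Tnnt1 lies directly downstream of Tnni3 on the same strand, and 3 GFP- and 4 GFP+ peaks fall in the windows of both genes. The GFP+ list held a peak at the 3′ end of Tnni3, 1842 bp upstream of Tnnt1 at percentile 40.6, without a GFP- counterpart. An intronic peak 11444 bp downstream of the Tnnt1 start ranked higher in GFP+ nuclei, 54.3 against 30.04.

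**Figure D2:**
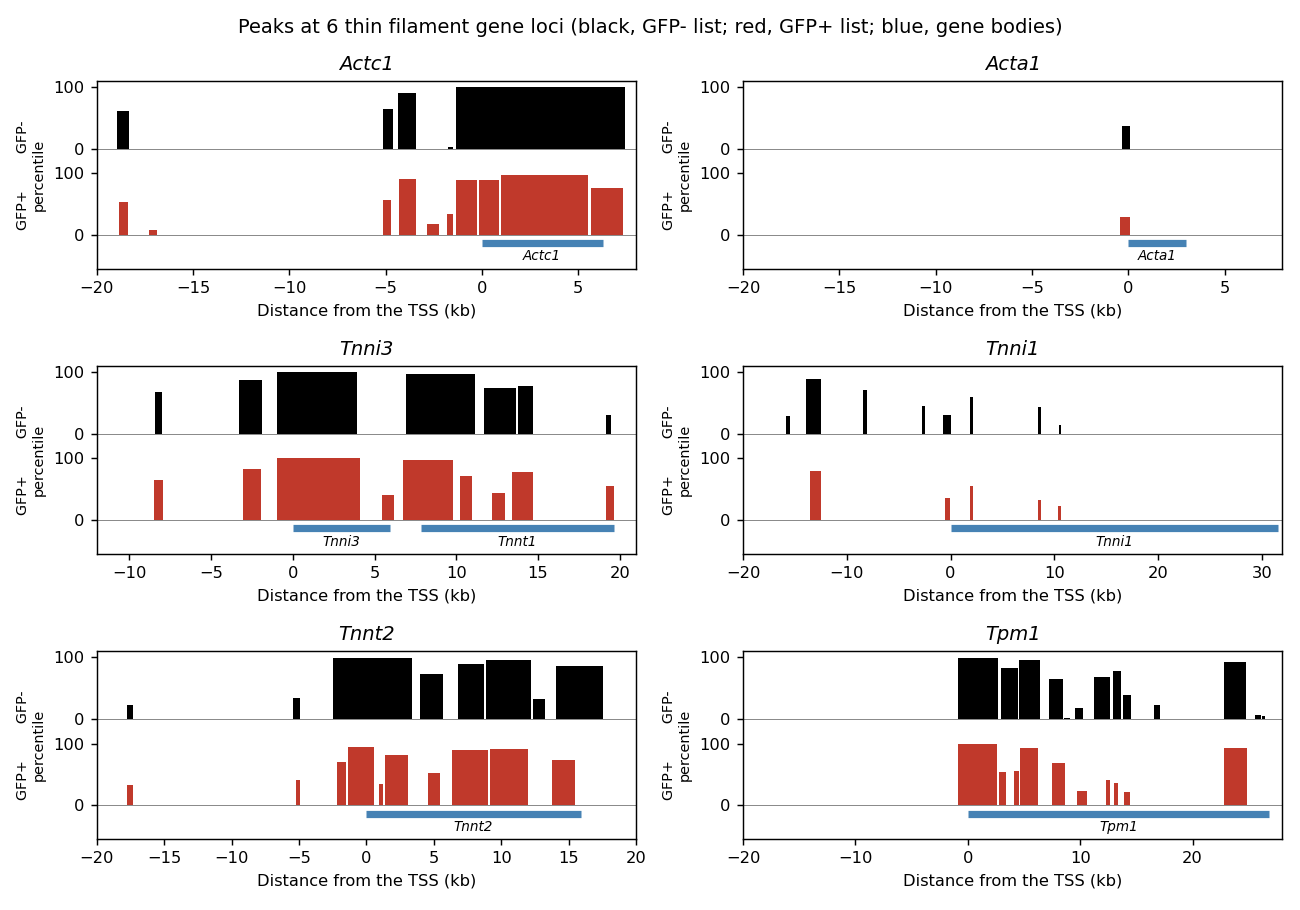
Peaks at 6 loci by distance from the TSS in kb (x axis, upstream negative), with height giving the percentile rank by area from 0 to 100 in the GFP- list (black, upper track) and the GFP+ list (red, lower track) and blue bars for gene bodies of the 10 genes. Actc1 and Tnnt2 show 1 long GFP- peak where the GFP+ list has 4, Tnnt1 has high peaks beside its neighbour Tnni3, and Acta1 and Tnni1 have low peaks at their starts.

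Tnnc1 (chr14:31208312-31211729, plus strand), troponin C of heart and slow muscle, had TSS peaks of 3788 bp at percentile 97.5 and of 2019 bp at 95.01 in GFP- and GFP+ nuclei. By area per bp the TSS peak ranked 16.7 points higher in the GFP+ list. The gene body was covered to 70.0% and 52.0%. The upstream peaks lie within Nisch. That at 10333 bp ranked 75.5 in GFP- and 28.1 in GFP+ nuclei, the largest loss of rank among the regions of the 10 genes found in both lists, and that at 19305 bp, percentile 36.9, was in the GFP- list only.

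Tpm1 (chr9:67022590-67049406, minus strand), the main tropomyosin of heart muscle, had nearly the same TSS peak in both lists, 3558 bp at percentile 99.3 and 3445 bp at 98.9. An internal peak 23928 bp downstream ranked 92.4 in the GFP- list and its counterpart 92.0 in the GFP+ list. Between these the lists differed more. A peak over an exon 13311 bp downstream ranked 78.8 against 35.4, and 3 weak peaks of the gene at percentiles 5.27, 6.51 and 23.3 were in the GFP- list only. The body was covered to 55.3% and 39.6%.

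The 2 genes of the pointed end differed in extent. Lmod2 (chr6:24597762-24605414, plus strand) ranked 93.1 and 93.0 at its TSS, and its body was covered to 76.7% and 79.0%. Its longest peak lay inside the gene and was 4273 bp long in GFP- and 5503 bp long in GFP+ nuclei, at percentiles 97.7 and 98.2. A peak 10706 bp upstream ranked 87.2 and its counterpart 83.3, whereas the peak 14123 bp upstream, at percentile 78.4, had no GFP+ counterpart and was the highest ranked peak of the 10 genes found in a single list. Tmod1 (chr4:46038935-46116032, plus strand), the longest gene, had 24 GFP- and 21 GFP+ peaks. The gene ranked 97.0 and 89.4 at its TSS, or 96.9 and 94.7 by the summed area of the region. Its body was covered to 16.6% and 11.5%, and its bp under peaks were 1.49-fold higher in GFP- nuclei. Of its 24 GFP- peaks 18 overlapped a GFP+ peak (95% Clopper-Pearson interval 53.3% to 90.2%). The share was 72.9% for the GFP- peaks in the windows of all protein-coding genes, which lies within this interval. The other 6 were found in the GFP- list only, at percentiles from 3.01 to 47.2.

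Peaks spread over the bodies of most of these genes. The median share of the gene body under peaks was 60.9% in GFP- and 48.3% in GFP+ nuclei, against 2.41% and 1.93% for all protein-coding genes. It was lower in GFP+ nuclei in 7 of 10 genes, and lower in 66.3% of all genes with any coverage. A peak of 3000 bp or more lay in 8 of the 10 windows in the GFP- list and in 5 in the GFP+ list, against 4.18% and 2.91% of all genes. At Tnnt2 the GFP- peak of 5866 bp met 4 GFP+ peaks, and the longest GFP+ peak of the window was 2863 bp. Acta1 and Tnni1 had none in either list.

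**Figure D3:**
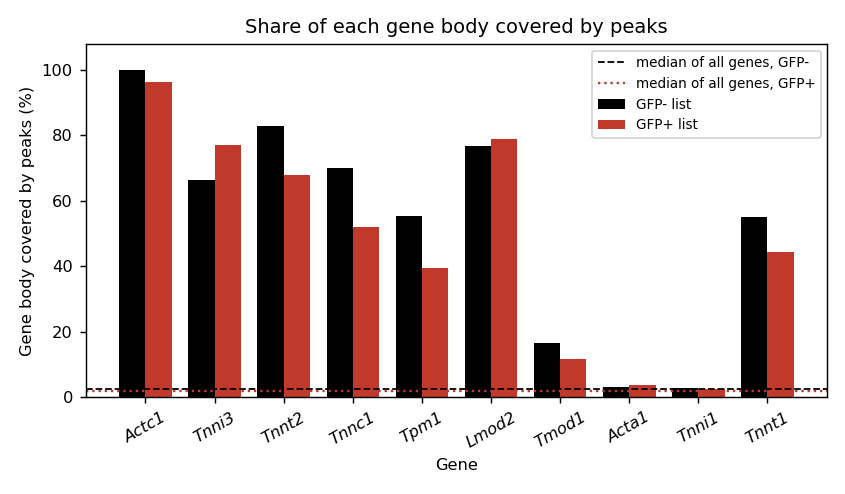
Share of the gene body covered by peaks (y axis, %) in the GFP- list (black bars) and GFP+ list (red bars), with the median of all protein-coding genes as dashed and dotted lines. Acta1 and Tnni1, between 2.48% and 3.72%, lie near the medians of 2.41% and 1.93%, and the other 8 genes lie at 11.5% or above in both lists.

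Counted by peak, the 10 windows held 80 GFP- peaks and 77 GFP+ peaks, each counted once. Of the GFP- peaks 65 shared 1 bp or more with the other list (81.3%, 95% Clopper-Pearson interval 71.0 to 89.1), against 72.9% of the GFP- peaks in the windows of all protein-coding genes. Of the GFP+ peaks 73 overlapped a GFP- peak (94.8%, 87.2 to 98.6), against 87.6%. The intervals cover counting error only, and neighbouring peaks of a gene are not independent. The GFP- share was 55 of 67 (82.1%, 70.8 to 90.4) for the cardiac genes and 10 of 13 (76.9%, 46.2 to 94.96) for the skeletal paralogs, a difference within the intervals, and the 3 unshared skeletal peaks were all at Tnni1.

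Sharing went with peak size. Among GFP- peaks above the median area of the list, 41 of 43 were shared (95.3%, all such peaks 86.4%), and below it 24 of 37 (64.9%, all such peaks 52.9%). The 15 peaks found in the GFP- list only had a median percentile of 28.3, and 9 of them lay in a gene and 6 upstream. The 4 found in the GFP+ list only had a median percentile of 14.1.

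Merging overlapping peaks gave 75 regions, of which 56 were in both lists, 15 in the GFP- list only and 4 in the GFP+ list only. Over the whole lists, 53996 of 86649 regions were in both. Among all peaks on the assembled chromosomes, 23923 GFP- peaks and 8720 GFP+ peaks had no overlap in the other list. Single-list peaks were thus more numerous in the GFP- list over the whole genome as well. Of the 56, the highest peak ranked lower in GFP+ nuclei in 37 and higher in 19, against 64.6% lower over all regions in both lists. The median difference was -2.48 points, against -1.80 for all regions. By the summed area of all peaks in a region, 42 of the 56 ranked lower in GFP+ nuclei, against 67.9% of all, and the median difference was -1.40, against -2.18 for all regions, so which of the medians is the lower depends on the measure. In 9 regions the GFP+ list had more peaks than the GFP- list and in 3 it had fewer. The same counts over all regions were not computed.

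**Figure D4:**
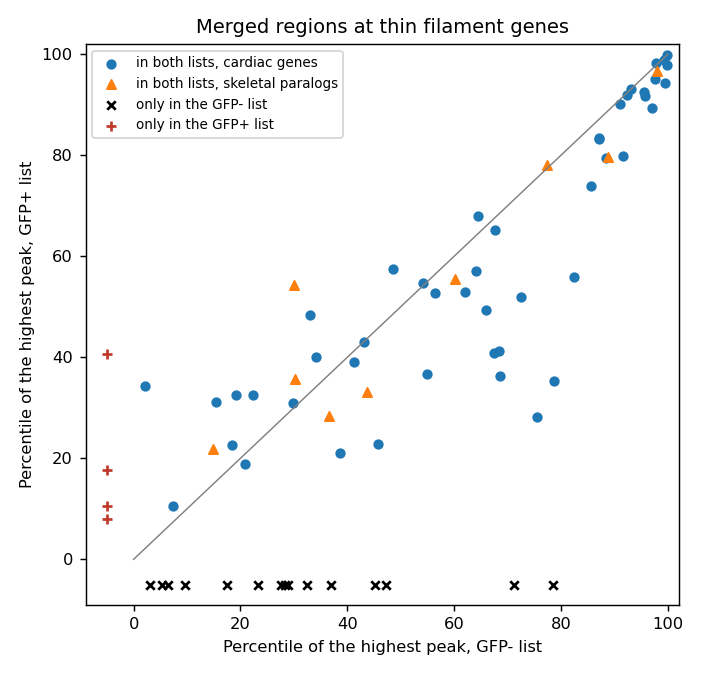
Each merged region of the 10 genes by the percentile rank of its highest peak in the GFP- list (x axis) and GFP+ list (y axis), with the diagonal of equal rank. Of 56 regions in both lists, 37 lie below the diagonal, and the 15 regions found only in the GFP- list (crosses) and the 4 found only in the GFP+ list (plus signs) are set on the margins at their own rank.

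The other 17 thin filament genes, which include cytoplasmic, smooth muscle and fast skeletal forms, varied widely. A TSS peak was present in 9 of 17 in each list, the same 9 genes. That share is near the 56.9% and 54.8% of all protein-coding genes. The TSS peak ranked lower by area in GFP+ nuclei in 7 and higher in 2, against 71.3% lower of all genes with such a peak in both lists. The median difference was -1.64, against -0.74 for all genes, and ranks by area per bp were not computed for these genes. The median body coverage was 6.55% and 2.20%, against 2.41% and 1.93% for all protein-coding genes. The bp under peaks were at least 1.5-fold higher in GFP- nuclei in 6 of 17, against 17.9% of all genes, and in GFP+ nuclei in 0, against 3.52%. Named after their values were seen, cytoplasmic Actb ranked 99.9 at its TSS in both lists, with 88.0% and 76.5% of its body covered, and Tpm4 ranked 96.9 and 96.5. The fast skeletal troponins Tnni2, Tnnt3 and Tnnc2 had no peak at the gene record's TSS in either list, and neither did smooth muscle actin Acta2 or leiomodin Lmod1. At another annotated transcript start, Acta2 (percentile 27.65) and Tnni2 (8.28) had a peak in the GFP- list only. Tpm3, also without a peak at the gene record's TSS, had one at another start in both lists (96.0 and 95.3). Tpm2, a tropomyosin of skeletal and smooth muscle, ranked 93.8 in GFP- and 78.8 in GFP+ nuclei, while Lmod3 ranked 86.2 and 84.6 and Tmod4 72.4 and 71.7.

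Markers of the heart's cell types were read in the same way, since a sorted population can hold nuclei of another type. Of 8 cardiomyocyte markers 7 had a TSS peak in both lists, at percentiles 82.7 to 99.998 in GFP- and 79.6 to 99.998 in GFP+ nuclei, and Nppa had none. Of 8 endothelial markers 4 were open at the TSS in the GFP- list and 6 in the GFP+ list, with Egfl7 and Emcn in the latter only. At any annotated transcript start the counts were 5 and 8. Egfl7 then had a peak in both lists (percentiles 72.6 and 98.7), and Pecam1, Erg and Emcn had one in the GFP+ list only. Cdh5 itself ranked 18.0 in GFP- and 85.3 in GFP+ nuclei, whereas Tek ranked 81.1 and 54.1. Of 8 fibroblast markers 6 had a peak at the gene record's TSS in GFP- nuclei (Dpt, Pdgfra, Tcf21, Col1a1, Col1a2 and Dcn) and 0 in GFP+ nuclei. At any annotated transcript start the fibroblast counts were 6 and 2, with GFP+ peaks at Pdgfra (percentile 87.0) and Col1a1 (80.7). Of 6 mural markers 6 and 3 had one, with Pdgfrb, Rgs5 and Notch3 in the GFP- list only. Of 6 immune markers 1 had one in each list, Cd68. Of 6 skeletal muscle markers 0 had one at the gene record in either list, and Ckm, which the heart also uses, had one at another transcript start. The cardiomyocyte markers were thus open in the GFP+ list together with the thin filament genes, and their part in the result was not tested.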

How the data were processed

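ATAC-Seq was performed on GFP- and GFP+ heart nuclei (2 replicates each). The authors trimmed, mapped to mm10, filtered, deduplicated and downsampled reads and called peaks with Genrich in ATAC mode, from both replicates together. The submitters' processing notes name Bowtie2 2.3.5.1 and SAMtools 1.19. In the deposited lists the area is a signal summed over the peak, the -log10 p-value is that of the summit, and the score deposited by the authors is area per bp limited by the caller. The lists hold no read counts per library.

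Peaks touching a gene body or the 20 kb upstream were taken (GENCODE M21), ranked by area within their list and compared by overlap of 1 bp or more. Promoter sequences came from RefSeq (GRCm38.p6), which held all 10 genes. No test was possible, so no p-value is given. All 10 genes are named, with others by a rule on paralogs, markers and single-list TSS peaks. The genes and lists were chosen with earlier results of these data known. RefSeq starts, summed areas, the AP-1 words and the printed peak windows were chosen after seeing the data. Alternatives changed the overlap, window, ranking measure, TSS and area threshold. Scripts were tested on simulated data and used Python 3.11.15, numpy 2.4.6, pandas 2.3.3, scipy 1.17.1, pysam 0.24.0 and matplotlib 3.10.9.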

Additional observations from a re-analysis of the deposited data

How the results depend on the processing

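No paired analysis was possible because each population has 1 list called from both replicates, and leaving out a replicate was not possible for the same reason. Of the values that answer a comparison, recomputed under each alternative, 46 stayed close and 17 moved. The signs of the median TSS difference and of Tnnt2 minus Tnnt1 in GFP+ nuclei changed. Ranking by area per bp changed most: the median TSS difference became 3.05 and 4 of 10 genes instead of 8 ranked lower in GFP+ nuclei, against 8 of 10 by summit p, 7 of 10 by summed area and 8 of 9 at RefSeq starts. The direction of the TSS difference therefore depends on the measure. By area per bp Actc1 exceeded Acta1 by 34.3 points (GFP-) and 81.3 (GFP+), Tnni3 exceeded Tnni1 by 84.3 and 69.4, and Tnnt2 exceeded Tnnt1 by 13.7 in GFP+ nuclei. By summit p, Actc1 exceeded Acta1 by 74.5 (GFP-), Tnni3 exceeded Tnni1 by 86.6 and 91.4, and Tnnt2 exceeded Tnnt1 by 2.81 (GFP+). By summed area, Actc1 exceeded Acta1 by 72.2 (GFP+). An overlap of 50% of both peaks gave shared shares of 62.5% (GFP-) and 64.9% (GFP+). That overlap was not computed for all peaks, so these shares have no background. With peaks above the median area alone, 43 GFP- and 44 GFP+ peaks remained, and 8 of 10 genes had a TSS peak in each list. In that setting 2 genes had at least 1.5-fold more bp in GFP- nuclei, and with gene bodies alone 0 did. The shares of all genes were not computed under these settings, so these counts have no background. The cause of these changes was not tested. The authors downsampled the libraries before calling, and the lists hold no read counts, so a missing peak is not shown to be closed chromatin.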
